A study of Nothobranchius furzeri with 3 samples.

Results

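Autophagy delivers cell content to the lysosome. A kinase complex built on ULK1 starts an isolation membrane, lipid-supplying proteins such as ATG2, ATG9 and WIPI enlarge it, and a conjugation system that includes ATG7, ATG12, ATG5 and ATG16L attaches ATG8-family proteins (GABARAP and LC3) to its lipids. Receptors such as SQSTM1 (p62) bind both cargo and ATG8 proteins. After fusion with the lysosome the cargo is degraded by cathepsins in a lumen that the V-ATPase, a proton pump with a cytosolic V1 sector and a membrane V0 sector, keeps acidic. The Ragulator complex (LAMTOR proteins), the calcium channels of the mucolipin family (MCOLN) and the transcription factor TFEB link the lysosome to nutrient signaling. The autophagy and lysosome genes described here are the entries whose symbol begins with the name of one of these families: gabarap, map1lc3, atg followed by a digit, ulk, becn, wipi, sqstm1, lamp, the cathepsins (cts), atp6v, atp6ap, tfeb, mcoln and lamtor. The rule uses symbols and no measured value, and it took 79 of the 22954 genes of the table, all 79 protein coding, with 75 distinct symbols.

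The genes were measured in the epidermal basal layer of fins of the African turquoise killifish *N. furzeri* (GRZ strain), a short-lived fish. Photo-isolation chemistry (PIC) amplifies cDNA only from cells irradiated with UV light, here p63-positive cells of sections. It counts RNA molecules by unique molecular identifiers (UMIs). For PIC the study's methods describe sections of trunk and fin, while a figure legend on these data names the fin. The groups were aged fish in water with 1 µg/mL tunicamycin, an inhibitor of N-glycosylation that causes ER stress (aged (Tm), n = 3 libraries), aged fish in DMSO (aged, n = 4) and young fish in DMSO (young, n = 4). The labels give no age for these animals and do not say whether the replicates came from separate fish. The study's methods speak of biological replicates in general without saying which fish gave which library, so p-values measure the spread between these libraries, part of which may be technical. The labels give 1 record for each condition, covering all its replicates. Any handling shared by the libraries of a condition cannot be told apart from the condition.

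Depth limited what could be tested. Libraries held 319223 to 705538 counts in aged (Tm), 37655 to 265509 in aged and 35366 to 298033 in young, and 3 of them (aged replicates 1 and 3, young replicate 3) held fewer than 60000. Summed over a group, the totals were 1371706 counts in aged (Tm), 534804 in aged and 577882 in young libraries. Counts of a gene over a group, given below for scarce genes, are not scaled to these totals and are not levels. The median count over the 79 genes and 11 libraries was 2. Levels are given in CPM, that is, counts scaled to a library total of 1000000. Basal keratinocyte markers (krt5, krt15, tp63, itgb4 and both ITGA6 entries) were present in every group. Their sum, carried by the keratins krt5 and krt15, was 13466 to 14407 CPM in aged (Tm), 25400 to 32824 in aged and 22454 to 59096 in young libraries, but 2 of the 6 (itgb4 and ITGA6) were called higher and 1 (ITGA6A) lower in aged (Tm) than in aged libraries. ITGA6A was at most 15.6 CPM in aged (Tm) and 50.9 CPM in young libraries. It passed the filter on low counts described below only through aged libraries, so a lower estimate was favored by the filter. Markers of other cells were also present: skeletal muscle genes summed to 4361 to 6742 CPM in aged (Tm), 5367 to 22467 in aged and 21494 to 85393 in young libraries. Differential expression was tested with edgeR on TMM-normalized counts of all 11 libraries, and a gene is called here when its adjusted p was under 0.1. The TMM factors rescale the total of each library over the tested genes. They were 0.616 to 1.05 in aged (Tm), 0.83 to 1.87 in aged and 0.752 to 1.23 in young libraries. Total count scaling below also uses totals over the tested genes. CPM use totals over all genes and do not include these factors. A level divided by them is thus not exactly on the scale of the fit. Below it is said for several levels where this division changes which groups overlap. It made the basal keratinocyte sums overlap, at 12947 to 22287 in aged (Tm), 17571 to 30628 in aged and 20301 to 58809 in young libraries. The share of all tested genes whose groups do not overlap is not given here. A lack of overlap below is thus not read as a result about the genes named.

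Of the 79 genes, 24 passed the filter on low counts and were tested, and 55 were not. The filter asks for a set CPM level in as many libraries as the smallest group holds, of whatever group. A gene can thus pass it only through a group where it is high. Tested genes had 31 to 679 counts over all libraries and the untested ones 3 to 114. Only 16 of the 79 had counts in every library, and 29 had fewer than 20 counts in all. An aged (Tm) library held counts for 63.7 of the 79 genes on average, against 61.0 in an aged and 56.2 in a young library. With every library reduced at random to the 35366 counts of the smallest, these means were 32.0, 43.5 and 40.2. Over all genes of the table, the means after this thinning were 5916 genes in aged (Tm), 9621 in aged and 8085 in young libraries.

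**Figure D1:**
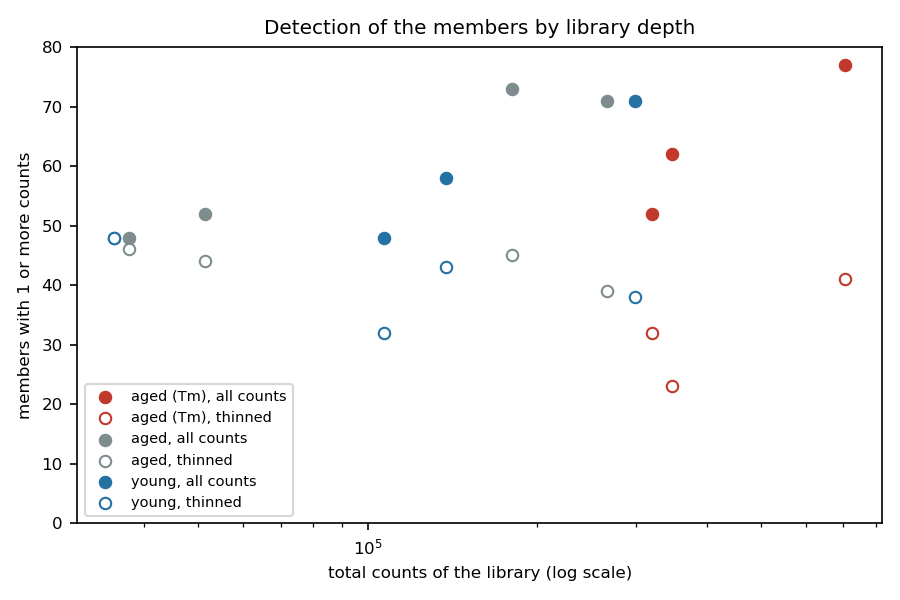
Number of the 79 autophagy and lysosome genes with 1 or more counts (vertical axis) by the total counts of the library (horizontal axis, log scale); filled points use all counts and open points each library thinned to 35366 counts, in aged (Tm), aged and young libraries. Thinned values run from 23 to 41 in aged (Tm), 39 to 46 in aged and 32 to 48 in young libraries.

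Between aged (Tm) and aged libraries 8 of the 24 tested genes were called, 4 higher and 4 lower. The higher genes were sqstm1, ATG16L2, ATP6V1A and LAMTOR2, and the lower ones CTSBA, ULK1B, ATG7 and MCOLN2. Over all 3963 tested genes 18.5% were called higher and 20.2% lower, so that the counts of 4 and 4 of 24 are near the share of all genes. The median log2 fold change was 0.41 over the 24 genes and -0.03 over all tested genes, and 16 of the 24 lay above the median of all genes. None of the 24 was called between aged and young libraries. These calls depended on the shallow libraries and on the scaling: without the 3 libraries under 60000 counts, a setting chosen after the data were seen that leaves 3 aged (Tm), 2 aged and 3 young libraries, ULK1B was the only one of the 8 still called, and with upper quartile or total count scaling the 4 higher calls were lost and the 4 lower ones kept. With no filter on low counts the reverse held: the 4 higher calls were kept, with log2 fold changes of 1.90 to 2.49, and all 4 lower calls were lost, with -0.39 to -0.89 (edgeR, adjusted p from 0.52 to 0.82). Each of the 8 kept its direction under every setting in which it was tested. ATG7 and MCOLN2 passed the filter only through aged and young libraries, so a lower estimate for them was favored by the filter.

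**Figure D2:**
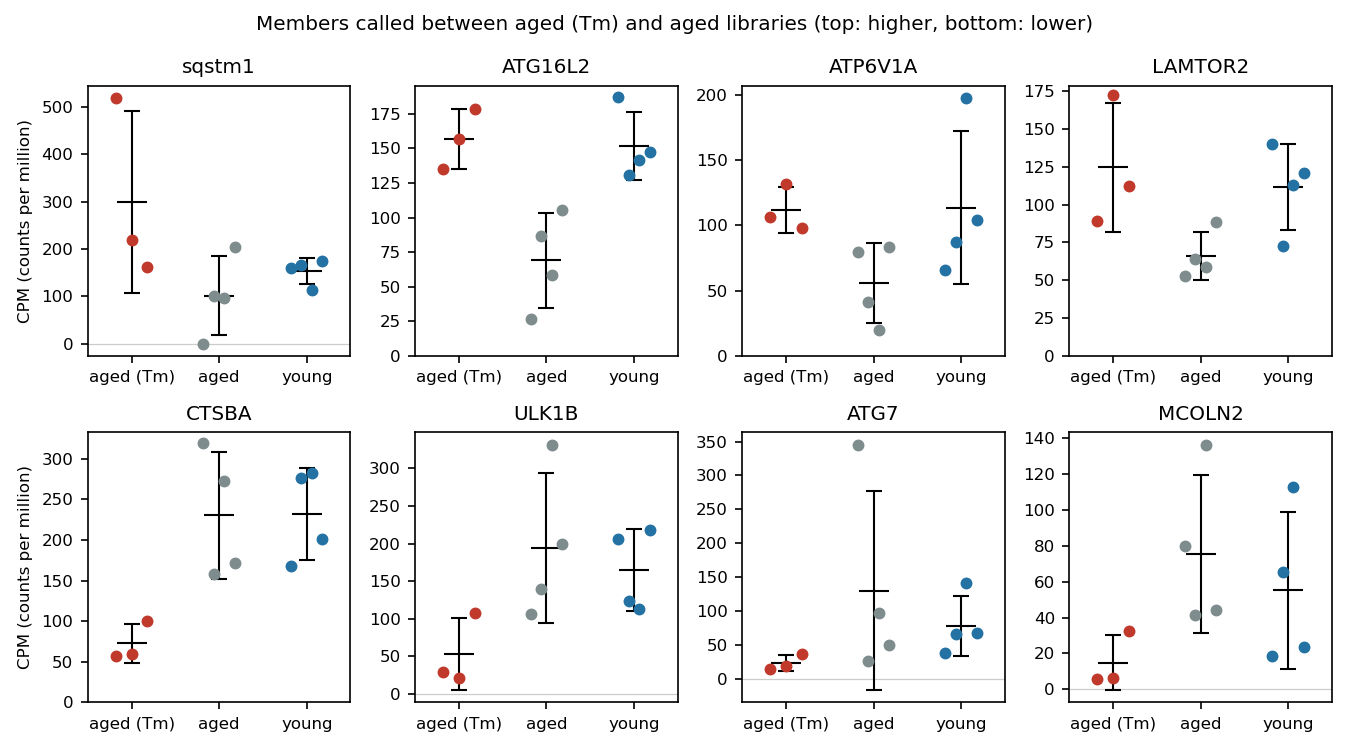
CPM of the 8 genes called between aged (Tm) and aged libraries (top row higher, bottom row lower), each point 1 library, with the mean (bar) and SD (whiskers) of the aged (Tm), aged and young groups. The groups aged (Tm) and aged do not overlap for ATG16L2, ATP6V1A, LAMTOR2, CTSBA and MCOLN2, and overlap for sqstm1, ULK1B and ATG7. The 8 genes were chosen as called on these same counts, and the share of all tested genes without overlap is not given here. ATG7 and MCOLN2 passed the filter only through aged and young libraries.

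The autophagy receptor SQSTM1 binds ubiquitinated cargo and ATG8 proteins and is itself degraded by autophagy. sqstm1 (sgr01) stood at 519, 219 and 162 CPM in the 3 aged (Tm) libraries, against 0, 102, 97.4 and 205 CPM in the 4 aged and 159, 167, 113 and 174 CPM in the 4 young libraries. Aged (Tm) replicate 1 was far above the other libraries, and the other 2 lay close to the highest aged library. The count of 0 in aged replicate 1 allows a level of up to 79.7 CPM at its 37655 counts. Its log2 fold change of aged (Tm) over aged was 1.84 ± 0.65 (SE, edgeR quasi-likelihood test, adjusted p = 0.042). Without aged (Tm) replicate 1 the value was 1.14 and the adjusted p 0.24. Against young libraries the change was 1.35 ± 0.64 and was not called (edgeR, adjusted p = 0.13), but it was with RLE scaling (1.66, adjusted p = 0.073), with DESeq2 (1.84, adjusted p = 0.041) and with only these 2 groups (1.19, adjusted p = 0.094).

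Among the ATG8 family, the ubiquitin-like proteins that mark the autophagosome membrane, only GABARAPA (sgr04) was tested of 7 genes. Its level was 141, 94.0 and 194 CPM in aged (Tm) libraries, against 186, 82.9, 214 and 66.5 CPM in aged and 150, 349, 396 and 221 CPM in young libraries. Aged and aged (Tm) libraries overlapped widely, while 3 of the 4 young libraries were above all of them, and 2 of the 4 after division by the TMM factors. Aged over young gave a log2 fold change of -1.21 ± 0.50, which did not pass the test (edgeR, unadjusted p = 0.023, adjusted p = 0.63). Aged (Tm) over aged gave 0.60 ± 0.51 (adjusted p = 0.37), and this value ran from -1.04 after thinning and -0.073 with total count scaling to 1.1 with DESeq2, which called it (adjusted p = 0.088), and 1.44 with no filter (edgeR, adjusted p = 0.26). The other 6 members were scarce: map1lc3a, map1lc3b and map1lc3c, which encode LC3 proteins, had 8, 4 and 3 counts in all 11 libraries, both GABARAPL2 entries had 17 and 5, and map1lc3cl had 41.

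Among the 12 genes of initiation and lipid supply 4 were tested. ULK1B (sgr02) encodes a ULK1 kinase, which starts autophagosome formation. It stood at 28.8, 21.9 and 108 CPM in aged (Tm) libraries, against 106, 139, 331 and 200 CPM in aged and 206, 124, 113 and 218 CPM in young libraries. Aged (Tm) replicates 1 and 2 were below all other libraries, and replicate 3 lay just above the lowest aged library. After division by the TMM factors the aged (Tm) libraries, at 33.9 to 103, also overlapped the young ones, at 91.7 to 274. ULK1B was lower in aged (Tm) than in aged libraries by a log2 fold change of -1.58 ± 0.55 (edgeR, adjusted p = 0.040) and than in young libraries by -1.49 ± 0.55 (adjusted p = 0.058). Aged and young libraries differed by 0.08 ± 0.50. Without the shallow libraries the change against aged was -1.52 (adjusted p = 0.072). Both calls were lost with no filter (-0.79 and -0.94, edgeR, adjusted p = 0.55 and 0.57) and with DESeq2 (-1.18 in both, adjusted p = 0.11 in both). The call against aged was lost without aged (Tm) replicate 1 or 2 or aged replicate 3 or 4 (adjusted p at most 0.22), and that against young without aged (Tm) replicate 1 or 2, aged replicate 4 or young replicate 1 or 4 (adjusted p at most 0.28).

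The other tested genes of this class were not called in the reported fit. WIPI1 (ENSNFUG00015015896), which binds the lipid PI3P on the isolation membrane, averaged 95.4 ± 22.2 CPM in aged (Tm), 57.4 ± 28.1 CPM in aged and 101 ± 34.6 CPM in young libraries (SD, n = 3, 4 and 4), with a log2 fold change of 1.03 ± 0.51 over aged (edgeR, adjusted p = 0.12). Divided by the TMM factors, its levels were 87.8 to 184 in aged (Tm) and 13.7 to 76.2 in aged libraries, which did not overlap. WIPI1 was called higher with RLE, with no filter (1.74, edgeR, adjusted p just under 0.1) and with DESeq2 (1.51, adjusted p = 0.044). ATG9A, the lipid scramblase of the vesicles that seed the membrane, gave 0.60 ± 0.55 and BECN1, a subunit of the PI3 kinase complex, 0.08 ± 0.60 (adjusted p = 0.40 and 0.93). Of the untested genes, ATG2A, a lipid transfer protein, had 9 counts in aged (Tm), 19 in aged and 11 in young libraries. WIPI2 had 7, 9 and 0 counts. Its pooled level in aged libraries was 3.24-fold a floor of 3 counts over the young group. This fold takes the 9 counts as exact and covers only the counting error of the 0, so it is not a lower limit.

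The conjugation system held 9 genes, 3 of them tested. ATG16L2 (sgr06), a paralog of the ATG16L1 scaffold that directs ATG8 lipidation, was at 135, 157 and 179 CPM in aged (Tm) libraries, against 26.6, 86.6, 58.5 and 105 CPM in aged and 187, 131, 141 and 148 CPM in young libraries. All 3 aged (Tm) libraries were above all 4 aged libraries and within the range of the young ones. ATG16L2 was higher in aged (Tm) than in aged libraries by a log2 fold change of 1.31 ± 0.50 (edgeR, adjusted p = 0.053). Aged over young gave -0.98 ± 0.49, which was not called (adjusted p = 0.83). The call was lost without aged (Tm) replicate 1 or 2 or aged replicate 3, with the adjusted p at most 0.13, and without the shallow libraries, where the change was 0.92 (adjusted p = 0.25).

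ATG7 (sgr10), the E1-like enzyme that activates ATG8 and ATG12, stood at 14.4, 18.8 and 36.9 CPM in aged (Tm) libraries, against 345, 26.4, 97.4 and 49.9 CPM in aged and 37.4, 65.4, 141 and 67.1 CPM in young libraries. Aged replicate 1 was far above the rest, from 13 counts, and aged replicate 2 lay inside the aged (Tm) range. ATG7 passed the filter only through aged and young libraries. The log2 fold change of aged (Tm) over aged was -1.56 ± 0.61 (edgeR, adjusted p = 0.059). The call was lost on leaving out any 1 of the 3 aged (Tm) libraries or aged replicate 1 or 3, and the change was smallest without aged replicate 1, at -0.65 (adjusted p = 0.39). Without the shallow libraries it was -0.46 (adjusted p = 0.65). The call was also lost with no filter (-0.68, adjusted p = 0.62), with DESeq2 (-1.21, adjusted p = 0.15) and with limma voom (-1.14, adjusted p = 0.13). atg12, the ubiquitin-like partner of ATG5, was at 49.8 ± 18.1 CPM in aged (Tm) and 83.9 ± 38.3 CPM in aged libraries (SD, n = 3 and 4) and was not called (-0.31 ± 0.49, edgeR, adjusted p = 0.64). ATG5 itself had 10 counts in each group, and since the group totals differ its pooled level was lowest in aged (Tm) libraries.

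**Figure D3:**
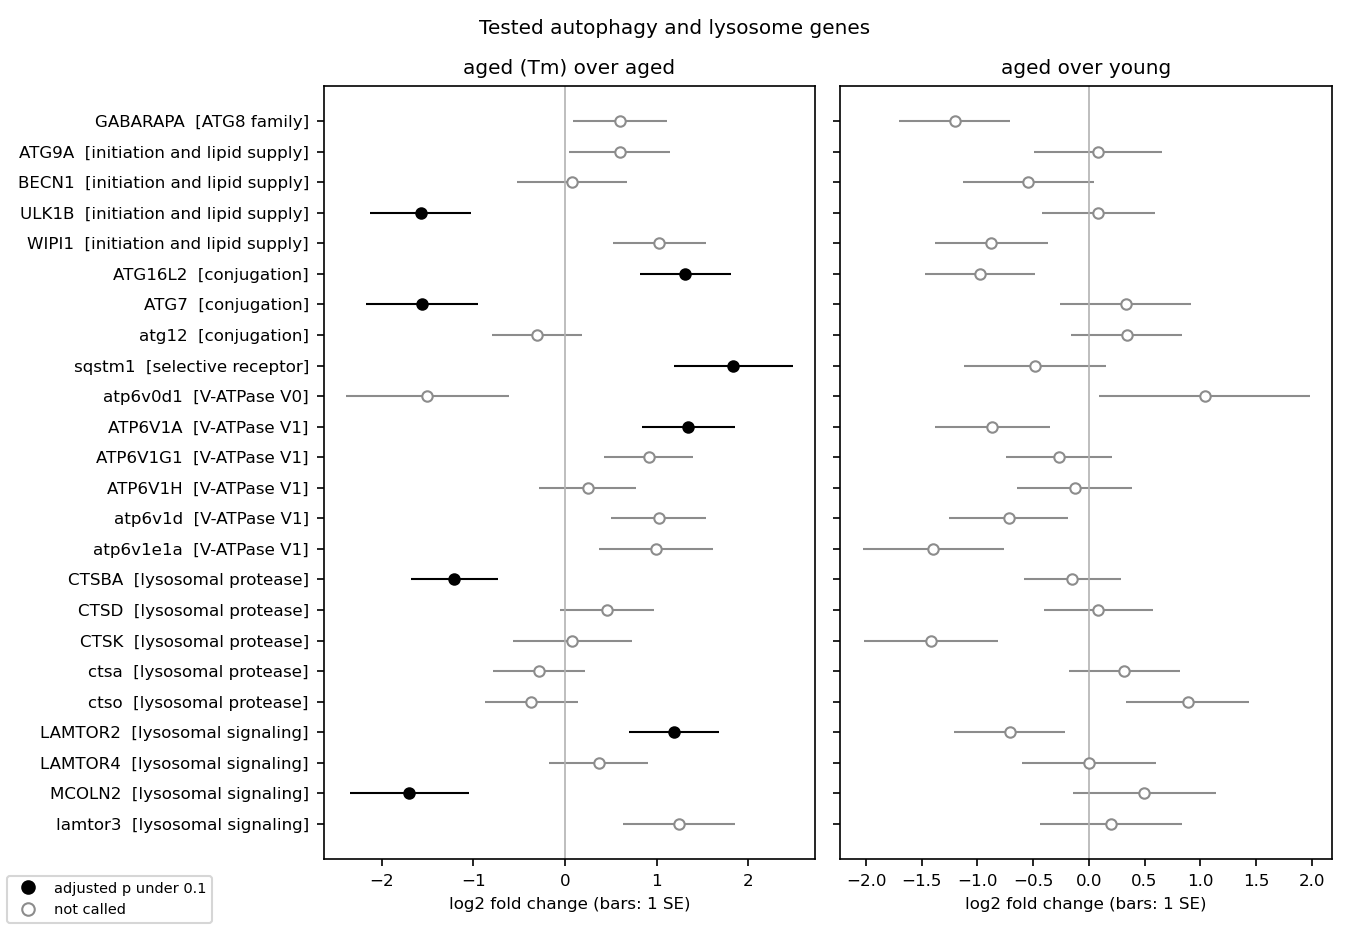
Log2 fold changes of the 24 tested genes by class (vertical axis) for aged (Tm) over aged (left) and aged over young (right); points are edgeR estimates, bars 1 SE, filled points have an adjusted p under 0.1. All 5 tested V1 genes lie above 0 on the left and below 0 on the right, and none of the 24 is filled on the right; with total count scaling ATP6V1H lies on the other side of 0 in both. Both panels use the same aged libraries. No aged library reached the filter level for atp6v1e1a, so its place in both panels was favored by the filter.

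The V-ATPase was the family with most members. Of the 13 genes of the V1 sector, which hydrolyzes ATP, 5 were tested and 1 was called. ATP6V1A (ENSNFUG00015021906, sgr08), the catalytic A subunit, stood at 107, 132 and 97.8 CPM in aged (Tm) libraries, against 79.7, 41.4, 19.5 and 83.2 CPM in aged and 65.5, 87.2, 198 and 104 CPM in young libraries. Every aged (Tm) library was above every aged library, while the young libraries spread over both ranges. The log2 fold change of aged (Tm) over aged was 1.35 ± 0.51 (edgeR, adjusted p = 0.051). It lost its call without aged (Tm) replicate 1 or 2 or aged replicate 2 or 3 (1.00 at the least, adjusted p at most 0.17) and without the shallow libraries (1.12, adjusted p = 0.17).

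The other 4 tested V1 genes were not called in the reported fit but had estimates of the same sign. ATP6V1G1, a stalk subunit, was at 173, 197 and 156 CPM in aged (Tm) libraries, against 106, 147, 77.9 and 128 CPM in aged and 122, 131, 113 and 191 CPM in young libraries. Its aged (Tm) libraries were all above the aged ones, though not after division by the TMM factors, with a log2 fold change of 0.91 ± 0.48 (edgeR, adjusted p = 0.15). atp6v1d gave 1.02 ± 0.52, atp6v1e1a 0.99 ± 0.62 and ATP6V1H, the regulatory H subunit, 0.25 ± 0.53 (adjusted p = 0.13, 0.22 and 0.73). ATP6V1G1 and atp6v1d were called higher with RLE and with DESeq2 (1.39 and 1.46 in DESeq2, adjusted p = 0.046 and 0.052), and atp6v1d also with no filter (1.70, edgeR, adjusted p = 0.098). With upper quartile or total count scaling 4 of the 5 V1 estimates stayed above 0, and ATP6V1H turned to -0.28 and -0.36. In aged over young the 5 estimates were all below 0 (ATP6V1H was at 0.09 with total count scaling), from -0.13 ± 0.52 for ATP6V1H to -1.40 ± 0.63 for atp6v1e1a (edgeR, adjusted p = 0.73 for atp6v1e1a), and none was called. Both comparisons share the aged libraries. For atp6v1e1a no aged library reached the level of the filter, which it passed only through young and aged (Tm) libraries. Its positive estimate over aged and its negative one in aged over young were thus favored by the filter.

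A second ATP6V1A entry (ENSNFUG00015023769, sgr11) was not tested. It had 11, 9 and 36 counts in aged (Tm) libraries, against 0, 5, 0 and 5 in aged and 1, 3, 1 and 18 in young libraries. With no filter on low counts it was called higher in aged (Tm) than in aged libraries (log2 fold change 1.95 ± 0.68, edgeR, adjusted p = 0.069). Reads shared by the 2 entries could have been split or dropped in counting. Without the filter 6.12% of all genes were called higher and 0.754% lower, against 8 and 2 of the 79. This setting called atp6v1c1a lower, from 1 count in aged (Tm), 9 in aged and 9 in young libraries (-3.22 ± 1.17, adjusted p = 0.088).

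The V0 sector, which carries protons across the membrane, was scarce: its 7 genes had 82 counts in aged (Tm), 72 in aged and 75 in young libraries. Summed, they stood at 31.7, 43.9 and 80.8 CPM in aged (Tm) libraries, against 345, 94.2, 175 and 139 CPM in aged and 65.5, 153, 311 and 121 CPM in young libraries. All aged (Tm) values were below all aged values, also after division by the TMM factors. After this division they were also below all young values, at 51.5 to 77.0 against 87.1 to 252. Sums of other scarce genes, the bone, ionocyte and nerve markers, were likewise lower in all aged (Tm) than in all aged libraries on both scales. Those of the erythrocyte, osteoclast and pigment cell markers overlapped. A lower sum was thus not particular to V0. The only tested V0 gene was atp6v0d1 (sgr07), with 31 counts in all and a log2 fold change of aged (Tm) over aged of -1.50 ± 0.89 (edgeR, adjusted p = 0.19). It passed the filter only through the 3 shallow libraries, which are aged and young ones, so a negative estimate was favored by the filter. It was tested in only 3 of the fits without 1 library. The V1 genes summed to 602 ± 81.5 CPM in aged (Tm), 489 ± 103 CPM in aged and 607 ± 106 CPM in young libraries (SD, n = 3, 4 and 4). These V1 sums overlapped, but after division by the TMM factors they were 652 to 926 in aged (Tm) and 260 to 540 in aged libraries, which did not overlap, and 482 to 686 in young libraries. The 3 accessory genes (ATP6AP1A, ATP6AP1L and atp6ap1b) had 13 to 38 counts each in all.

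**Figure D4:**
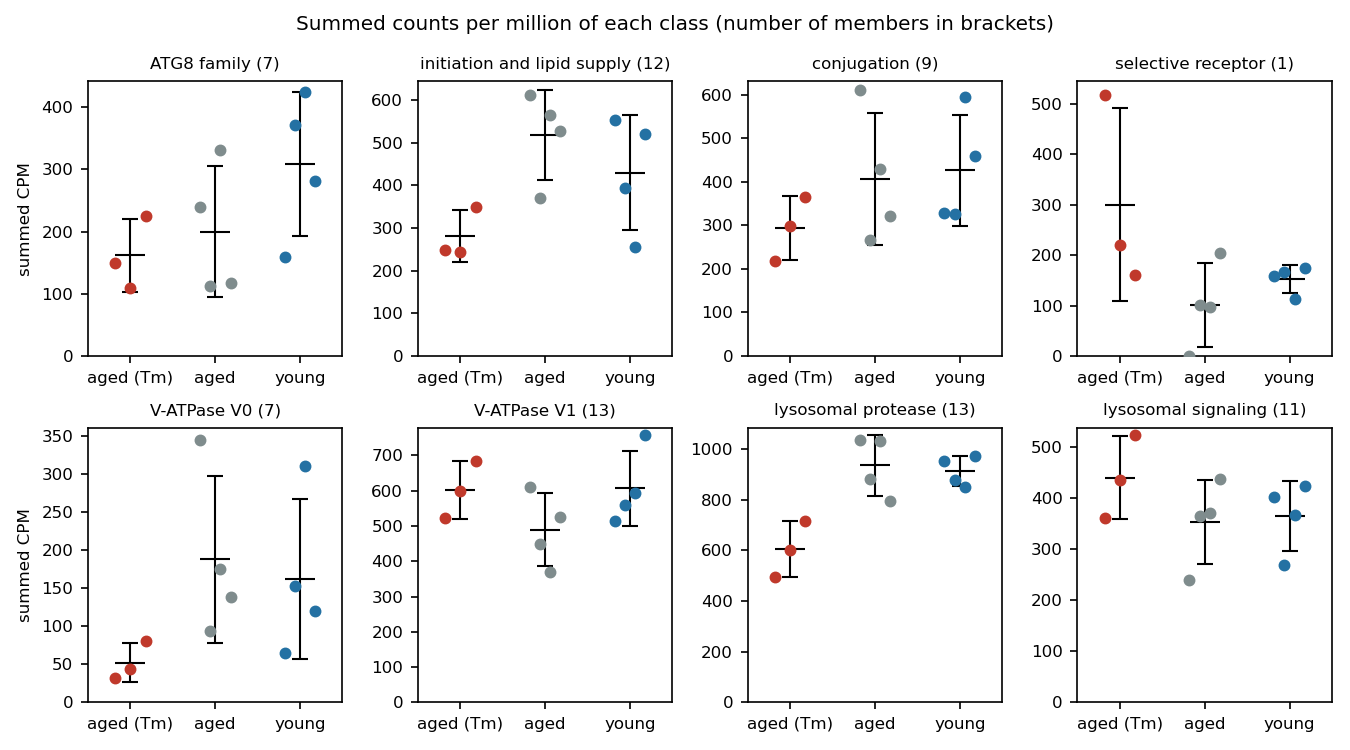
Summed CPM of the genes of each class, tested or not, in each library (points), with the mean (bar) and SD (whiskers) of the aged (Tm), aged and young groups; the number of genes is in brackets. On this scale initiation and lipid supply, lysosomal proteases and the V0 sector are lower in all 3 aged (Tm) libraries than in all 4 aged libraries. The sums of the other classes drawn overlap between these groups. The V-ATPase accessory genes, not drawn, summed to 12.5 to 25.5 CPM in aged (Tm) and 26.6 to 97.4 CPM in aged libraries. Their sums overlap after division by the TMM factors. After division by the TMM factors V0 stays lower, and the initiation and protease sums overlap. The V1, conjugation and lysosomal signaling sums are then higher in all 3 aged (Tm) than in all 4 aged libraries.

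Cathepsins, the proteases of the lysosome, were the class with the highest sum. The 13 cathepsin entries summed to 496, 601 and 717 CPM in aged (Tm) libraries, against 1036, 881, 1033 and 793 CPM in aged and 954, 879, 848 and 973 CPM in young libraries, so that the aged (Tm) libraries lay below all others on this scale. After division by the TMM factors the sums overlapped, at 683 to 930 in aged (Tm), 554 to 1063 in aged and 688 to 1269 in young libraries. Of the 5 that were tested 1 was called. CTSBA (sgr07), a cathepsin B, was at 57.6, 59.5 and 101 CPM in aged (Tm) libraries, against 319, 158, 273 and 172 CPM in aged and 168, 276, 283 and 201 CPM in young libraries. No aged (Tm) library reached the lowest aged or young one, with or without the TMM factors.

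CTSBA was lower in aged (Tm) than in aged libraries by a log2 fold change of -1.21 ± 0.47 (edgeR, adjusted p = 0.059) and than in young libraries by -1.36 ± 0.47 (adjusted p = 0.046). Aged and young libraries differed by -0.15 ± 0.43. The call against aged was lost on leaving out any 1 of the 3 aged (Tm) libraries or aged replicate 1, 3 or 4 (-0.96 at the least, adjusted p at most 0.23), while without the shallow libraries the change was -1.0 against aged (adjusted p = 0.18) and -1.32 against young (adjusted p = 0.039). The call against young was lost on leaving out any 1 aged (Tm) library, aged replicate 4 or young replicate 2 (adjusted p at most 0.20). With no filter both calls were lost (-0.39 against aged and -0.75 against young, edgeR, adjusted p = 0.82 and 0.65), and that against aged also with RLE (-1.0, adjusted p = 0.11) and DESeq2 (-0.74, adjusted p = 0.19). Its paralog ctsbb was not tested: it had 0 counts in aged (Tm), 10 in aged and 5 in young libraries. The pooled level of ctsbb in aged libraries was 8.55-fold a floor of 3 counts over the aged (Tm) group. This fold takes the 10 counts as exact, so it is not a lower limit. With no filter ctsbb was called lower (edgeR, adjusted p = 0.015).

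CTSD (sgr07), the aspartic protease cathepsin D, had the most counts of all 79 genes and did not separate the groups. It stood at 236, 301 and 296 CPM in aged (Tm) libraries, against 266, 301, 273 and 216 CPM in aged and 290, 196, 141 and 289 CPM in young libraries. Its log2 fold change of aged (Tm) over aged was 0.46 ± 0.51 (edgeR, adjusted p = 0.49), and -0.19 with total count scaling. ctsa, the protective protein of lysosomal sialidase, and ctso gave -0.29 ± 0.51 and -0.37 ± 0.51 (adjusted p = 0.67 and 0.59). CTSK, a collagen-degrading cathepsin of osteoclasts and fibroblasts, was at 25.9, 56.4 and 63.8 CPM in aged (Tm), 0, 90.4, 0 and 61.0 CPM in aged and 196, 124, 56.6 and 174 CPM in young libraries. The aged libraries with 0 counts were the shallow ones, where 0 counts allow up to 79.7 and 58.5 CPM. Aged over young gave -1.42 ± 0.60 for CTSK, which was not called (edgeR, unadjusted p = 0.028, adjusted p = 0.68). The 10 fibroblast markers summed to 935 to 3024 CPM in aged and 7352 to 13745 CPM in young libraries, and the 4 osteoclast markers to 27 to 72 and 0 to 58 CPM; their part in the CTSK values was not tested.

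Among the 11 genes of lysosomal signaling, 4 were tested. LAMTOR2 (sgr05), a Ragulator subunit that anchors mTORC1 activation to the lysosome, was at 89.4, 172 and 112 CPM in aged (Tm) libraries, against 53.1, 64.0, 58.5 and 88.7 CPM in aged and 140, 72.7, 113 and 121 CPM in young libraries. The lowest aged (Tm) library lay just above the highest aged one. LAMTOR2 was higher in aged (Tm) than in aged libraries by a log2 fold change of 1.19 ± 0.49 (edgeR, adjusted p = 0.072), and the call was lost without aged (Tm) replicate 2 or aged replicate 1, 2 or 3 (0.89 at the least, adjusted p at most 0.27), without the shallow libraries (0.95, adjusted p = 0.26) and with only the 2 groups compared (1.13, adjusted p = 0.10).

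Another Ragulator subunit, lamtor3 (sgr16), was at 112, 125 and 166 CPM in aged (Tm) libraries, against 0, 113, 39.0 and 61.0 CPM in aged and 46.8, 21.8, 0 and 124 CPM in young libraries. The aged (Tm) libraries were above 3 of the 4 libraries of either control group, and above all of them after division by the TMM factors. lamtor3 was higher in aged (Tm) than in young libraries by 1.44 ± 0.62 (edgeR, adjusted p = 0.098), a call close to the threshold that was lost without aged (Tm) replicate 1 or 2 or young replicate 1, 2 or 3 (adjusted p at most 0.26) and with upper quartile scaling, total count scaling and limma voom (adjusted p = 0.20, 0.23 and 0.11). Over aged libraries it gave 1.25 ± 0.61 and was not called (adjusted p = 0.12), but it was with RLE, no filter and DESeq2 (1.49, 1.90 and 1.76, adjusted p = 0.071, 0.052 and 0.052). LAMTOR4 gave 0.37 ± 0.54 over aged (adjusted p = 0.61), and lamtor1, the membrane anchor of Ragulator, had 22 counts in aged (Tm), 4 in aged and 4 in young libraries and was not tested. These lamtor1 counts are not scaled to the group totals, of which that of aged (Tm) was the largest.

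MCOLN2 (sgr17), a mucolipin cation channel of endosomes and lysosomes, was at 5.76, 6.27 and 32.6 CPM in aged (Tm) libraries, against 79.7, 41.4, 136 and 44.4 CPM in aged and 18.7, 65.4, 113 and 23.5 CPM in young libraries. All aged (Tm) libraries were below all aged ones, and the highest aged and young values came from shallow libraries. No aged (Tm) library reached the level of the filter, so MCOLN2 passed it only through the groups where it was higher. The log2 fold change of aged (Tm) over aged was -1.70 ± 0.65 (edgeR, adjusted p = 0.054). It lost its call without aged (Tm) replicate 1 or 2 or aged replicate 3 (-1.31 at the least, adjusted p at most 0.19) and without the shallow libraries (-1.26, adjusted p = 0.24), with no filter (-0.89, adjusted p = 0.52) and with DESeq2 (-1.37, adjusted p = 0.13). MCOLN1, the main lysosomal mucolipin, had 47 counts in aged (Tm), 15 in aged and 15 in young libraries, and tfeb, which drives transcription of lysosomal genes, had 3, 3 and 0; neither was tested. lamp2 had the most counts of the 3 lysosomal membrane proteins, 75 in aged (Tm), 22 in aged and 17 in young libraries, 62 of the 75 in aged (Tm) replicate 3. The counts of MCOLN1, tfeb and lamp2 are not scaled to the group totals, which were 1371706 in aged (Tm), 534804 in aged and 577882 in young libraries.

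**Figure D5:**
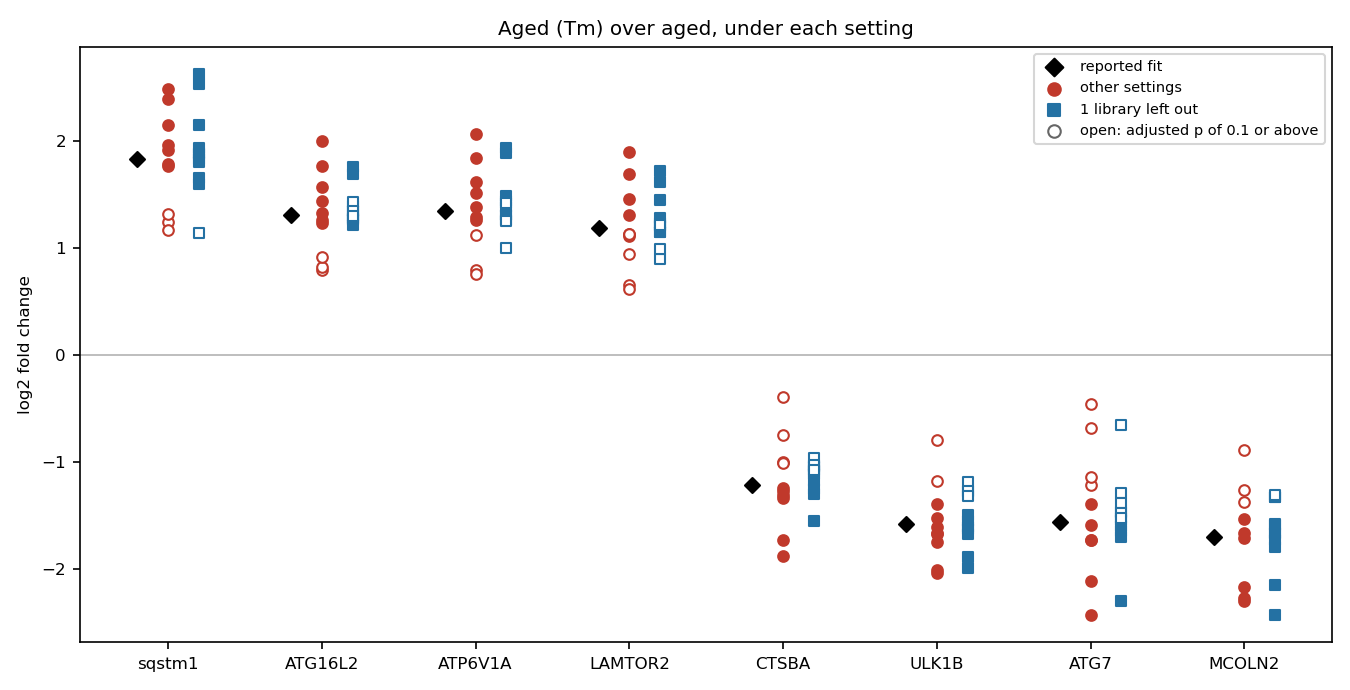
Log2 fold changes of aged (Tm) over aged (vertical axis) for the 8 called genes, with the reported fit (diamonds), every other setting in which the gene was tested (circles) and fits without 1 library (squares); filled points have an adjusted p under 0.1. Every point of a gene lies on the same side of 0, and each gene has open points.

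Leaving out a library changed how many genes were called between aged (Tm) and aged libraries. Without aged (Tm) replicate 1 only LAMTOR2 was called, and without aged (Tm) replicate 2 or aged replicate 3 only sqstm1. Without aged (Tm) replicate 3, 7 genes were called higher and 5 lower. The shares of all tested genes called in these fits are not given here, so the counts cannot be set against them. DESeq2 gave an adjusted p for 44 of the 79 and called 10 higher and 2 lower, where 16.5% of all genes with an adjusted p were called higher and 8.45% lower. The 4 higher genes above were among the 10, and none of the 4 lower genes above was among the 2 (ATG2A and atp6v1c1a).

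No gene of the 24 was called in aged over young libraries by edgeR, where 0.707% of all tested genes were called. At an unadjusted p under 0.05 in edgeR there were 3 of the 24, where there were 242 of all 3963 tested genes. These 3 were GABARAPA, atp6v1e1a and CTSK, all with negative estimates, and that of atp6v1e1a was favored by the filter. DESeq2 and limma voom also called 0. The median log2 fold change was -0.14 over the 24 genes and 0.05 over all tested genes. The counts per gene leave wide intervals: the SE over the 24 genes ran from 0.43 for CTSBA to 0.94 for atp6v0d1.

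In aged (Tm) over young libraries 1 gene was called higher (lamtor3) and 2 lower (ULK1B and CTSBA) of 24, where 15.9% of all tested genes were called higher and 13.2% lower. The median log2 fold change was 0.14 over the 24 genes and -0.10 over all tested genes. Of the genes called higher over aged libraries, ATG16L2, ATP6V1A and LAMTOR2 gave 0.33 ± 0.48, 0.48 ± 0.48 and 0.48 ± 0.48 over young libraries (edgeR, adjusted p = 0.62, 0.47 and 0.46). Of those called lower over aged, ATG7 gave -1.23 ± 0.60 and MCOLN2 -1.20 ± 0.67 over young (adjusted p = 0.14 and 0.19).

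A list of 88 other autophagy and lysosome genes (membrane fusion, selective receptors, lysosomal hydrolases, mTORC1 regulators) gave a comparison outside the symbol rule. Of these, 18 were tested, and 2 were called higher and 4 lower in aged (Tm) than in aged libraries. Over all tested genes 18.5% were called higher and 20.2% lower. The median log2 fold change was -0.68 over the 18 genes and -0.03 over all tested genes. NPC2, a cholesterol-binding lysosomal protein, was at 300, 320 and 112 CPM in aged (Tm) and 53.1, 71.6, 39.0 and 49.9 CPM in aged libraries. The groups did not overlap, and the log2 fold change was 2.53 ± 0.56 (edgeR, adjusted p = 0.0054). VMP1, an ER membrane protein needed to form autophagosomes, was at 611, 219 and 132 CPM in aged (Tm) libraries, against 159, 121, 58.5 and 77.6 CPM in aged libraries, ranges that overlap, with 2.15 ± 0.60 (adjusted p = 0.016). Both were also called higher than in young libraries (2.34 ± 0.56 and 3.05 ± 0.64, adjusted p = 0.0063 and 0.0025), and both kept the call over aged without the shallow libraries (2.26 and 1.98, adjusted p = 0.020 and 0.049). VMP1 lost it without aged (Tm) replicate 1 (1.24, adjusted p = 0.14).

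The 4 lower genes of this list were the kinase mtor (-1.53 ± 0.56), its partner RPTOR (-2.25 ± 0.82), the sialidase neu1 (-1.60 ± 0.65) and the beta-glucuronidase gusb (-1.39 ± 0.57), with adjusted p from 0.046 to 0.068 in edgeR. mtor was at 11.5, 15.7 and 24.1 CPM in aged (Tm) libraries, against 159, 41.4, 19.5 and 72.1 CPM in aged libraries, where aged replicate 3 was the only one not above the aged (Tm) range. All 4 lower calls were lost without aged (Tm) replicate 1, without aged (Tm) replicate 2 and with no filter (edgeR, adjusted p from 0.34 to 0.63). With DESeq2 mtor, neu1 and gusb lost theirs (adjusted p = 0.16, 0.17 and 0.18), while RPTOR kept it (adjusted p = 0.078). Without the shallow libraries mtor and gusb lost theirs (edgeR, adjusted p = 0.11 and 0.15), while neu1 kept it (adjusted p = 0.038). RPTOR was not tested there. It was at only 2.88, 0 and 15.6 CPM in aged (Tm) libraries. It passed the filter only through aged replicates 1 and 3 and young replicate 3, at 79.7, 97.4 and 56.6 CPM, all of them shallow. mtor and neu1 also passed the filter only through aged and young libraries. A lower estimate for these 3 genes was thus favored by the filter. In aged over young libraries 0 of the 18 were called, where 0.707% of all tested genes were called.

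The summed levels of markers of other cell types varied between the groups. Suprabasal keratinocyte markers summed to 1457 to 2109 CPM in aged (Tm), 253 to 1635 in aged and 339 to 2312 in young libraries. Divided by the TMM factors, the sums were 2010 to 2987 in aged (Tm) and 171 to 1971 in aged libraries, which did not overlap. Of the 4 suprabasal markers that were tested 1 was called higher in aged (Tm) than in aged libraries, ANXA1A (2.16 ± 0.92, edgeR, adjusted p = 0.078). Nerve markers summed to 56 to 129 CPM in aged (Tm), 166 to 717 in aged and 168 to 283 in young libraries, and all 3 that were tested were called lower in aged (Tm) than in aged libraries. The nerve gene with most counts in aged (Tm), an nrxn1b entry, had 30 over that group. These 3 genes thus passed the filter mainly through aged and young libraries, and a lower estimate was favored by the filter. Fibroblast markers summed to 427 to 1691 CPM in aged (Tm), 935 to 3024 in aged and 7352 to 13745 in young libraries, and ionocyte markers, of cells rich in V-ATPase, to 72 to 102, 132 to 637 and 94 to 452 CPM. The defining ionocyte genes foxi1 and foxi3b had 0 and 1 counts in aged (Tm), 0 and 1 in aged, and 1 and 0 in young libraries. Macrophage and leukocyte markers, of cells rich in cathepsins, summed to 628 to 912 CPM in aged (Tm), 451 to 1253 in aged and 566 to 1160 in young libraries, ranges that overlap. The part of these cells in the values above was not tested, and fewer cells of a type cannot be told apart from less RNA per cell.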

How the data were processed

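PIC libraries of p63-positive basal cells (3 aged (Tm), 4 aged, 4 young) were used as deposited by the authors: whole UMI counts per gene without normalization. Per the submitters' processing notes the tools were UMI-tools 1.0.0, HISAT2 2.1.0, featureCounts 1.6.4 and DESeq2 1.20.0; the genome build is not given in the sources used here, and chromosome names are those of the table. Treatment lasted 24 hours in the study's methods and one night in the labels. The members and the lists were chosen with earlier results of these data known.

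The test was edgeR 4.0.16's quasi-likelihood test (two-sided, R 4.3.3) in 1 model of all 11 libraries, with TMM normalization, the filterByExpr filter (3963 genes passed) and a threshold of 0.1 on p-values adjusted by the Benjamini-Hochberg method over those genes. SE is the size of the log2 fold change divided by the square root of F. CPM use library totals over all genes. TMM, RLE, upper quartile and total count scaling in edgeR use totals over the genes that passed the filter. Levels divided by the TMM factors are thus not exactly on the scale of the fit, and were added after the data were seen. Genes were named if called in any comparison, if tested members of the ATG8 family, or if the tested gene with most counts of their class; other genes were named after their values were seen. Intervals and floors (3 counts) cover counting error only. Folds against a group at 0 cover only the counting error of the 0 and take the other count as exact. The procedure was tested on simulated data with known changes. Alternatives were no filter, scaling by RLE, by the upper quartile or by totals, 10 counts in 3 libraries, DESeq2 1.42.0, limma voom 3.58.1, only the 2 groups compared, thinning to 35366 counts, a threshold of 0.05, a replicate block, leaving out each library, and, added after the data were seen, leaving out 3 libraries under 60000 counts. No sequence is shown, since no genome was used here. Reads shared between paralogs and between overlapping genes could not be examined. Figures were drawn with matplotlib 3.10.9.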

Additional observations from a re-analysis of the deposited data

How the results depend on the processing

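The counts of genes called higher and lower in aged (Tm) over aged libraries, 4 and 4 in the reported fit, were 8 and 3 with RLE, 0 and 4 with upper quartile and with total count scaling, 8 and 2 with no filter, 4 and 3 with 10 counts in 3 libraries and with limma voom, 10 and 2 with DESeq2, 3 and 5 with only the 2 groups compared, 1 and 1 at a threshold of 0.05, 0 and 1 without the libraries under 60000 counts, and 0 and 0 after thinning, which left 2 members (CTSD and GABARAPA) among 601 tested genes. Without 1 library they ran from 1 to 7 and from 0 to 5. In aged (Tm) over young libraries, 1 and 2 in the reported fit, the counts were 2 and 2 with RLE and DESeq2, 0 and 4 with upper quartile, 0 and 3 with total count, 1 and 0 with no filter, 1 and 4 with 10 counts in 3 libraries and without the shallow libraries, 0 and 2 with limma voom, 2 and 5 with only the 2 groups compared, 0 and 1 at 0.05 and 0 and 0 after thinning. Without 1 library they ran from 0 to 3 and from 0 to 4. In aged over young libraries the count was 0 under every setting run. For most settings, here and below, the share of all tested genes called is not given. A change in these counts can thus follow a change over all genes and is not read as a result about the members. Thinning, leaving out libraries and the stricter threshold lower power by construction; for the others the cause was not tested. The median of all tested genes in aged (Tm) over aged moved to 0.18 with RLE, -0.52 with upper quartile and -0.58 with total count scaling, and the median of the 24 members to 0.65, -0.10 and -0.13, with 16 of 24 above the median of all genes in each.

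With the replicate block the counts were 6 and 5 over aged, 1 and 4 over young and 0 in aged over young. Correlations of deviations between libraries of the same replicate number ran from -0.51 to 0.38. Libraries of different numbers were not compared, so these values cannot show whether the numbers pair the libraries.

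Values that changed sign were not called in the reported fit. With total count scaling they were, in aged (Tm) over aged, CTSD (-0.19) and GABARAPA (-0.073), in aged over young CTSBA (0.13), and in aged (Tm) over young ATG16L2 (-0.048) and ATP6V1A (-0.033). With upper quartile scaling they were CTSD (-0.092) over aged and ATG16L2 (-0.11) and ATP6V1A (-0.022) over young. After thinning they were CTSD (-0.56) and GABARAPA (-1.04) over aged and CTSD (-0.12) over young. With no filter they were CTSD (-0.10) and ULK1B (-0.15) in aged over young, and GABARAPA (0.028) and atp6v0d1 (0.10) in aged (Tm) over young. In aged over young they were also ATG7 with limma voom (-0.066) and without the shallow libraries (-0.56), CTSBA with only the 2 groups compared (0.14), and ULK1B with DESeq2 (-0.0013) and without the shallow libraries (-0.094). Without 1 library, aged over young ran from -0.45 to 0.93 for ATG7, -0.22 to 0.039 for CTSBA, -0.081 to 0.30 for CTSD, -0.11 to 0.28 for ULK1B and -0.50 to 1.29 for lamtor3.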
